A study of Saccharomyces cerevisiae with 4 samples.

Results

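The genes described here encode the proteasome of Saccharomyces cerevisiae and its transcriptional activator. They comprise 14 genes of the 20S core, 17 genes of the 19S cap and RPN4, and were selected by gene symbol among 6051 genes and unnamed spots on the array. All 32 were measured, each by 1 spot. Transcripts were compared on 4 arrays, 2 for a strain with wild-type HSF1 and 2 for one carrying hsf1-R206S/F256S, an allele of the heat shock transcription factor gene that changes 2 amino acids. Cells of both strains had been kept at 39 °C for 15 min, and total RNA was copied into 33P-labelled cDNA from an oligo(dT) primer. The strain background, the way the allele is carried and whether replicates were separate cultures are not given in the labels, so p-values measure only the spread between these arrays, which may be technical. No unheated sample was analysed here, and the comparison is between strains at 1 temperature.

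The proteasome degrades ubiquitin-tagged proteins. Its 20S core is a barrel of alpha rings, which gate the entrance, around beta rings, which hold the proteolytic sites. The 19S cap binds, unfolds and feeds in substrates, its base being built around a ring of ATPases and its lid carrying the enzyme that removes ubiquitin. In yeast the genes of core and cap are activated together by Rpn4, a short-lived transcription factor that the proteasome itself degrades, and Hsf1 is known as one of the activators of RPN4, beside Yap1 and Pdr1. The comparison therefore asks how RPN4 and the subunit genes stood at 39 °C when Hsf1 was mutated.

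Values are spot intensities in arbitrary units after quantile normalization of the 4 arrays. Differences are mutant minus wild type on the log2 scale after an offset of 1.06 had been added, which understates a true change of a dim gene. A spot counted as above background on an array when its deposited value exceeded 3 noise SDs of that array, which held for 24.9% to 61.2% of all spots. A gene is called bright where its mean log2 level over all 4 arrays was above the mean of the 4 background limits, a rule that does not use the strains. It kept 22 of the 32 genes: RPN4, 7 of 14 core genes and 14 of 17 cap genes. 19 of the 32 were above background on all 4 arrays and 7, namely 6 core genes and 1 cap gene, on none. As a check of the strain labels, all 17 chaperone genes on a list of Hsf1 targets were lower in the mutant, with a median log2 difference of -3.15. Over all 6051 features, 48.6% were lower and the median was 0.01. The list was chosen with earlier results of these data known, so the check is not independent of them. Levels are relative to the other RNA on an array, and fewer cells with a transcript cannot be told apart from less of it per cell.

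RPN4 (YDL020C) had the lowest log2 difference of the 22 bright genes with all 4 arrays, although RPT5 (-1.94) and RPN10 (-1.25) lay below it (-1.24) when mutant replicate 1 was left out. Its normalized intensity was 69.8 and 67.9 in wild-type cells and 35.2 and 30.5 in mutant cells. Both mutant arrays lay well below both wild-type arrays, and all 4 were above background. The strain means were 68.8 ± 1.28 and 32.8 ± 3.30 (SD, n = 2 each), a 2.07-fold lower level in the mutant. The log2 difference was -1.05 (SE 0.37), with a 95% interval from -2.13 to 0.03, and did not pass the threshold (adjusted p = 0.438 in limma over all features). The direction was the same before any normalization here, where the deposited intensities were 66.4 and 58.6 in the wild type and 43.7 and 33.2 in the mutant, without overlap. Among all 2220 bright genes, 10.0% differed by as much downward. RPN4 met the fold rule, which asks for at least a 2-fold difference with both mutant arrays on one side of both wild-type arrays. It ended just short of 2-fold with a larger offset of 3.44, the median noise SD of the arrays (-1.0), when wild-type replicate 1 was left out (-0.99) and when mutant replicate 2 was (-0.96), and further short as deposited (-0.70).

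Of the 32 genes, 24 were lower on average in the mutant and 8 higher, with a median of -0.38, where 48.6% of all features were lower. The tally depended on the scaling and the arrays. It was 17 lower as deposited, with a median of -0.04 over the 31 subunit genes, where 28.4% of all features were lower, and 20 lower without mutant replicate 2, against 49.6%. None of the 32 passed an adjusted p of 0.05 in limma, nor did any other feature (0% of 6051). At an unadjusted p under 0.05 there were 2, PRE1 and PRE2, both dim, against 11.7% of all features. 4 of the 32 met the fold rule downward, RPN4, PRE1, PRE2 and PRE10, against 12.8% of all features. RPN2 alone met it upward, against 13.5%. The mutant arrays lay below both wild-type arrays for 12 genes and above both for 2, against 19.3% and 21.2% of all features, and for the other 18 genes the strains overlapped. As deposited, where the median of all features was 0.63, only RPN4 and PRE2 of these 12 genes stayed without overlap. PRE9 and RPN12 lay below the wild type without overlap only there. The 2 genes above, RPN2 and RPT6, stayed above. With mutant replicate 1 left out, 8 genes met the fold rule downward and 2 upward, while the shares of all features also went up, to 16.5% and 20.2%. The upward count was also 2 when wild-type replicate 1 was left out, against 21.2% of all features, and when mutant replicate 2 was, against 19.9%.

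**Figure D1:**
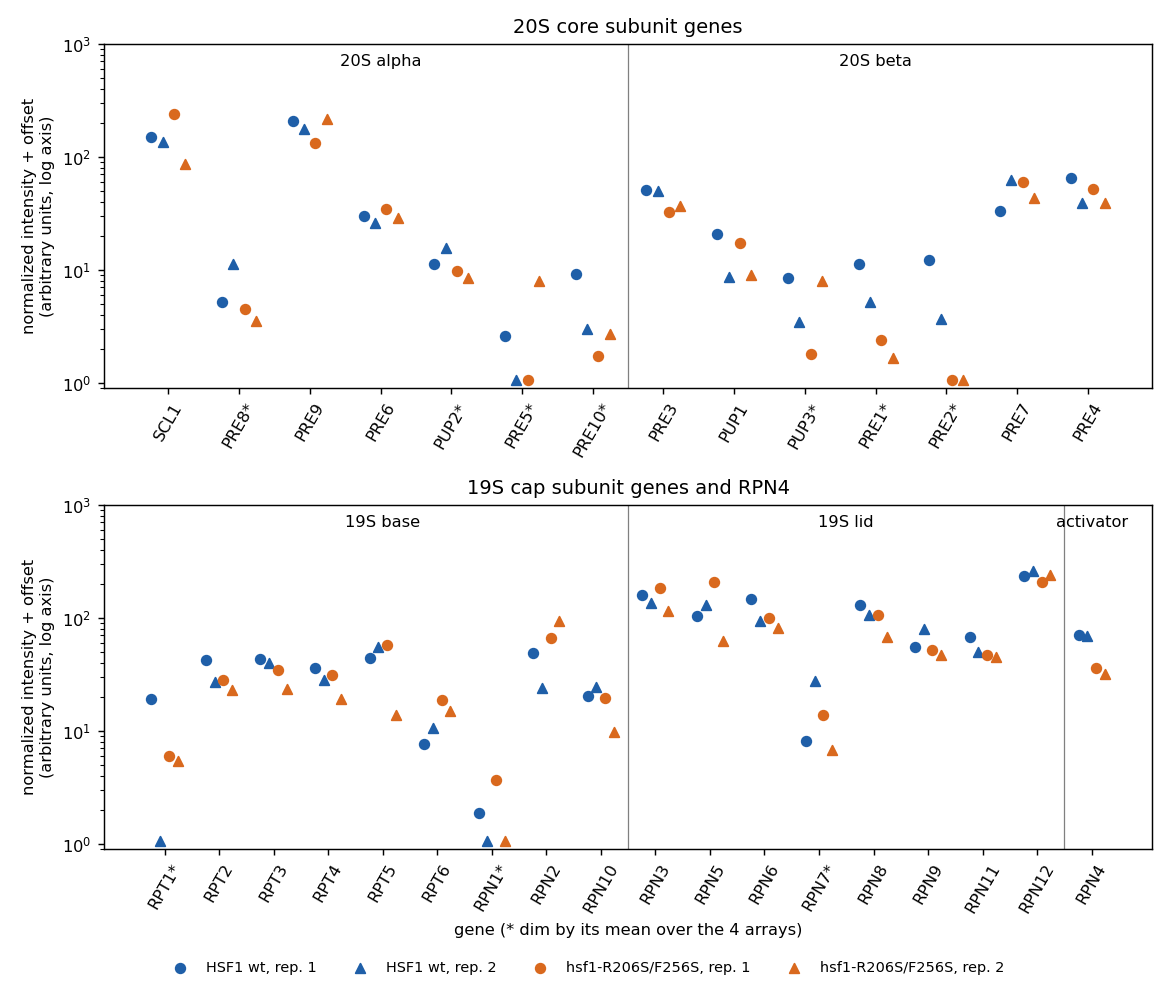
Normalized intensity plus the offset of 1.06 (arbitrary units, log axis) of each of the 32 genes on the 4 arrays. Blue marks wild type, orange the mutant, circles replicate 1 and triangles replicate 2, and an asterisk marks a dim gene. RPN4 at the right has both mutant arrays below both wild-type arrays, while for 18 genes the strains overlap.

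Among the alpha subunit genes of the core, 4 of 7 were lower and the median was -0.16. The brightest spot was that of PRE9 (YGR135W), the gene of the alpha 3 subunit and the only core subunit that yeast can live without. PRE9 read 206.4 and 174.7 in the wild type and 132.3 and 216.6 in the mutant. The mutant arrays lay on either side of the wild-type ones, and the log2 difference was -0.16 (SE 0.46, adjusted p = 0.913 in limma). It turned to 0.20 without mutant replicate 1, and with median scaling PRE9 was at -1.12 and met the fold rule downward. SCL1 (YGL011C), which encodes alpha 1, was at 149 and 134 in the wild type and at 237 and 85.4 in the mutant. Its mutant replicates differed more from each other than the strains did, with a difference of 0.01 (SE 0.66) that was -0.77 and 0.78 without mutant replicate 1 and 2 respectively and -0.87 with median scaling. PRE6 (YOL038W), for alpha 4, was close in all 4, at 28.8 and 25.1 against 33.7 and 27.9.

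The remaining 4 alpha genes were dim. PRE10 (YOR362C), for alpha 7, met the fold rule downward at -1.28 (SE 0.75), with 8.16 and 1.91 in the wild type and 0.670 and 1.64 in the mutant. None of its 4 values was above background, so no fold is given, and the sign turned as deposited (0.33). PRE10 was -0.06 with median scaling, -0.48 with cyclic loess, -0.79 with the larger offset and -0.44 without wild-type replicate 1. PRE8 at -0.96 (SE 0.57), PUP2 at -0.54 (SE 0.41) and PRE5 at 0.81 (SE 1.25), for alpha 2, alpha 5 and alpha 6, were not above background on any array apart from PUP2 on 1 mutant array. PRE8 and PUP2 had both mutant values below both wild-type values, and PRE5 was at 0 on 1 array of each strain. As deposited PUP2 and PRE8 overlapped between strains, at 0.10 and -0.20. PRE8 met the fold rule with cyclic loess (-1.16). In the 4 fits without 1 array, PRE8 lay between -1.49 and -0.34, and PRE5 between -0.63 and 2.45.

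Of the beta subunit genes 6 of 7 were lower, with a median of -0.52, and -0.13 over the 4 bright ones. PRE7 (YBL041W), for beta 6, had the brightest spot of them on average. Its intensity was 32.1 and 61.9 in the wild type and 58.7 and 42.1 in the mutant, both mutant values inside the wild-type range. The difference was 0.15 (SE 0.53, adjusted p = 0.937 in limma), and it turned to -0.14 with median scaling and to -0.30 without wild-type replicate 1. PRE3 (YJL001W), which encodes the caspase-like beta 1 subunit, was the 1 bright core gene without overlap. It stood at 49.9 and 49.0 in the wild type and 31.6 and 35.9 in the mutant, 1.45-fold lower (log2 -0.54, SE 0.37, adjusted p = 0.679 in limma). As deposited the strains overlapped and its difference was only -0.10. PRE4, for beta 7, and PUP1, for the trypsin-like beta 2 subunit, overlapped between strains at -0.16 (SE 0.48) and -0.10 (SE 0.69), and turned to 0.25 and 0.50 as deposited.

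PRE2 (YPR103W), for the chymotrypsin-like beta 5 subunit, had the lowest log2 difference of all 32 genes, at -2.67 (SE 0.75, adjusted p = 0.365 in limma). It read 11.2 and 2.62 in the wild type and 0 on both mutant arrays. PRE1 (YER012W), for beta 4, read 10.1 and 4.15 in the wild type and 1.34 and 0.598 in the mutant, a difference of -1.93 (SE 0.58, adjusted p = 0.380 in limma). For both genes the mutant values lay below both wild-type values, yet none of the 8 values was above background, so neither size is a measured fold. With the larger offset the difference of PRE2 went to -1.46 and that of PRE1 to -1.20. As deposited they were -1.99 and -0.84, and PRE1 overlapped between strains there. With wild-type replicate 1 left out they were -1.83 and -1.34. PRE2 was -3.50 if wild-type replicate 2 was dropped, and PRE1 was -2.81 if mutant replicate 1 was. PUP3, for beta 3, was likewise below background on all 4 arrays, at -0.52 (SE 1.01). Its sign is not settled, being 0.86 as deposited, 0.39 with median scaling and 0.66 without mutant replicate 1, while it met the fold rule downward at -1.67 without mutant replicate 2.

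In the base of the cap, 5 of 9 genes were lower and the median was -0.38. RPN2 (YIL075C), one of the large scaffold subunits, went the other way and was also the brightest spot of the base on average. Its intensity was 48.2 and 22.7 in the wild type and 65.6 and 93.4 in the mutant. Both mutant arrays were above both wild-type arrays, all 4 above background, and the means were 35.4 ± 18.1 and 79.5 ± 19.6 (SD, n = 2 each), 2.32-fold apart on the log2 means. The difference of 1.21 (SE 0.57) did not pass the threshold (adjusted p = 0.554 in limma). It was below 2-fold, at 0.64, when wild-type replicate 2 was left out, at 0.98 when mutant replicate 2 was and at 0.88 under median scaling, and it was 1.59 as deposited. RPN1 (YHR027C), the other large scaffold gene, was not above background on any array, so the pair cannot be compared.

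The 6 ATPase genes RPT1 to RPT6 encode the ring that unfolds substrates. RPT6 (YGL048C) was the other gene with both mutant arrays above both wild-type ones, at 6.61 and 9.57 against 17.7 and 13.8. Neither wild-type array was above background, which leaves RPT6 at least 1.01-fold higher in the mutant, with a fitted difference of 0.88 (SE 0.42, adjusted p = 0.560 in limma). RPT3 (YDR394W) lay without overlap the other way, at 42.1 and 38.8 in the wild type and 33.2 and 22.5 in the mutant, 1.46-fold lower (log2 -0.55, SE 0.42). RPT2 and RPT4 were lower by similar sizes with overlapping arrays, at -0.41 (SE 0.45) and -0.38 (SE 0.47). As deposited RPT3 overlapped between strains at -0.06, and RPT2 and RPT4 turned to 0.11 and 0.13. RPT2 was also only -0.09 without wild-type replicate 1 and RPT4 only -0.02 without mutant replicate 2. RPT5 (YOR117W) read 42.8 and 54.2 in the wild type but 56.1 and 12.6 in the mutant. Its difference of -0.82 (SE 0.87) thus came from mutant replicate 2 and was 0.22 without it. RPT1, above background on 1 wild-type array and at 0 on the other, had a difference of 0.34 (SE 1.61) that turned from 2.44, past the fold rule upward, when wild-type replicate 1 was left out to -1.68, past it downward, when wild-type replicate 2 was. RPN10 (YHR200W), a ubiquitin receptor, was at 19.2 and 23.2 against 18.4 and 8.69, without overlap. Its difference of -0.69 (SE 0.53) shrank to -0.19 without mutant replicate 2 and to -0.11 as deposited, where the strains overlapped.

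All 8 lid genes were lower on average in the mutant, by -0.02 to -0.64, with a median of -0.36, and none met the fold rule. With median scaling, RPN12 and RPN8 did, and RPN7 did when wild-type replicate 1 (-1.49) or mutant replicate 1 (-1.22) was left out. RPN12 (YFR052W) had the brightest spot. It read 235 and 260 in the wild type and 207 and 241 in the mutant, with overlap, and the difference was -0.14 (SE 0.38, adjusted p = 0.907 in limma). Its size depended on the scaling, being -0.55 as deposited and -1.28 with median scaling, where RPN8 was at -1.07. RPN11 (YFR004W), the enzyme that cuts ubiquitin off substrates, was at 66.9 and 48.5 in the wild type and 45.5 and 43.9 in the mutant. RPN9 (YDR427W) was at 54.6 and 78.9 against 51.1 and 45.7, and RPN8 (YOR261C), the partner of Rpn11, at 128 and 104 against 104 and 66.0. These were the 3 lid genes without overlap, with differences of -0.34 (SE 0.40), -0.43 (SE 0.42) and -0.47 (SE 0.45). Of all bright genes, 22.9% lay below without overlap. RPN8 barely separated, its higher mutant value matching the lower wild-type one to the printed digits. As deposited, the strains overlapped for all 3 and RPN11 was at 0.05, while RPN12 lay below without overlap there. RPN3, RPN5, RPN6 and RPN7 overlapped, at -0.02, -0.03, -0.38 and -0.64, and RPN5 read 206.4 and 61.9 on the mutant arrays around wild-type values of 103.3 and 129.2. Dropping 1 array turned 3 of these, RPN3 to 0.34 and RPN5 to 0.90 without mutant replicate 2, and RPN7 to 0.24 without wild-type replicate 2, so the common direction of the lid genes held over the 4 arrays together and not in each such fit.

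**Figure D2:**
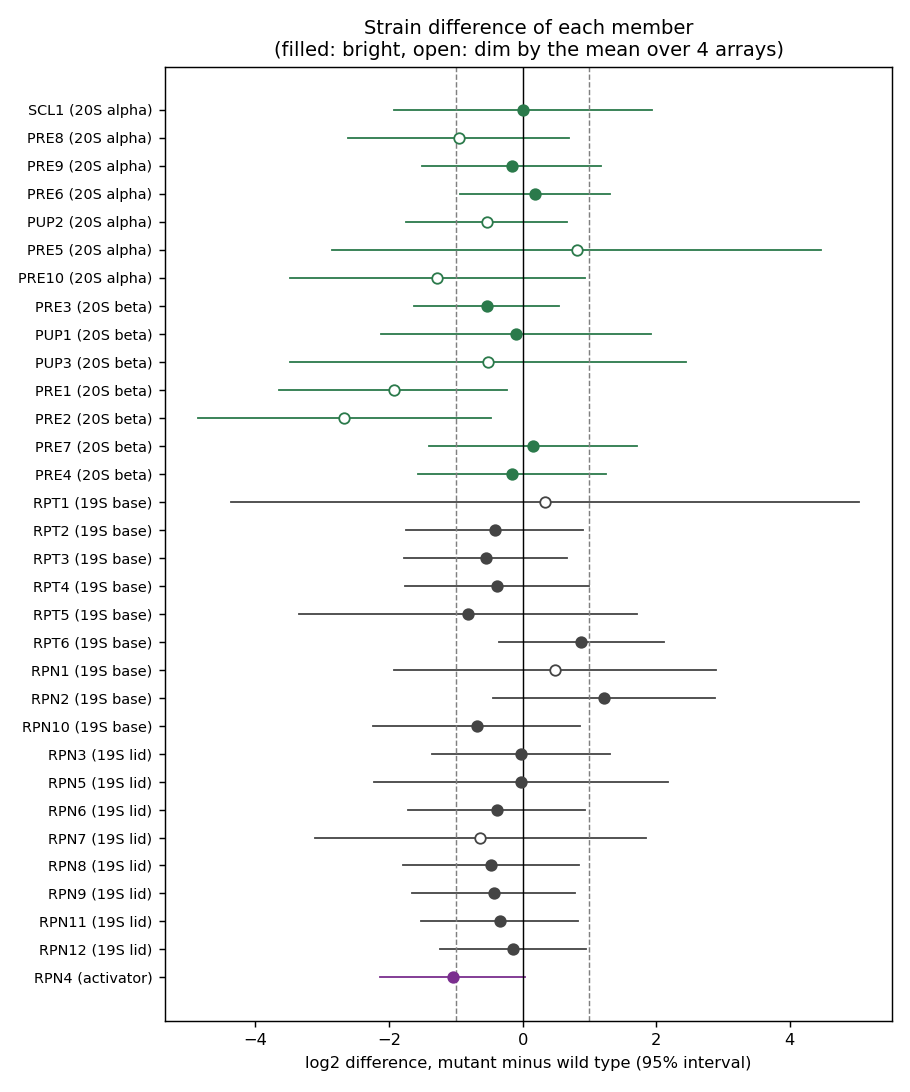
Log2 difference, mutant minus wild type, of each gene with its 95% interval from limma. Filled points are bright genes and open points dim ones, green is the 20S core, grey the 19S cap and purple RPN4, and dashed lines mark a 2-fold difference. Only the intervals of the dim genes PRE1 and PRE2 leave out 0, and that of RPN4 ends at 0.03.

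The spread between replicates was as large as the strain differences for most subunit genes. For 17 of the 21 bright subunit genes, replicates of at least 1 strain differed more on the log2 scale than the strains did, the other 4 being PRE3, RPT3, RPT6 and RPN2. A gap between 2 single arrays varies more than a difference of 2 means, so such a count is largely built in. The median gap between replicates was 0.33 in the wild type and 0.50 in the mutant, against a median absolute strain difference of 0.38. Over all bright genes these medians were 0.47, 0.42 and 0.54. All 21 intervals included 0, with SEs from 0.37 to 0.87 (median 0.45), so a strain difference was not detectable for any single one of them with 2 arrays per strain. The mutant replicates were also offset from each other as a group. 17 of the 21 were higher on mutant replicate 1 than on mutant replicate 2, by a median of 0.41, against -0.03 over all bright genes. 16 of the 21 were lower in the mutant, where 45.9% of all bright genes were. Without mutant replicate 2 the median of all 31 subunit genes moved from -0.38 to -0.19, and it was also -0.19 without wild-type replicate 1.

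Core and cap were then compared. The median log2 difference was -0.34 for the 14 core genes and -0.38 for the 17 cap genes. As a contrast within each array, the mean log2 level of the core genes minus that of the cap genes was -0.93 and -1.14 in the wild type and -1.83 and -1.06 in the mutant. Only the change between strains can be read from it, because spots of different genes are not on 1 scale. It came to -0.41, against SDs of 0.15 in the wild type and 0.54 in the mutant, and mutant replicate 2 lay inside the wild-type range. The change was -0.07 when mutant replicate 1 was left out and -0.81 when mutant replicate 2 was.

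Restricted to the bright genes, 7 of the core and 14 of the cap, the contrast was -0.04 and -0.15 in the wild type and -0.09 and 0.09 in the mutant. The change was 0.09, with SDs of 0.08 and 0.12, so the arrays of the strains overlapped and core and cap did not differ beyond the spread between replicates. The medians of the bright genes were -0.10 for the core and -0.38 for the cap. The lower mean of the full core set thus rested on genes read near or below background. 3 core genes and no cap gene met the fold rule downward, where 12.8% of all features did, and all 3 were dim. In contrast, 1 bright core gene and 5 bright cap genes lay without overlap below the wild type, where 22.9% of all bright genes did. As deposited, each of these genes overlapped between strains. Among the bright genes, PRE9 of the core and RPN12 of the cap lay below without overlap there instead, so the count does not set core and cap apart.

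RPN4 was also lower relative to the subunit genes, a contrast that uses the same RPN4 values and so is not separate evidence. Within each array, the log2 level of RPN4 minus the mean of the 21 bright subunit genes was 0.27 and 0.40 in the wild type and -0.71 and -0.41 in the mutant. The strains did not overlap, and the change was -0.90, with SDs of 0.09 and 0.21. This contrast cancels a constant scaling factor of an array for bright genes. It was -0.82 as deposited and -0.83 with median scaling, and lay between -0.80 and -1.06 in the 4 fits without 1 array.

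**Figure D3:**
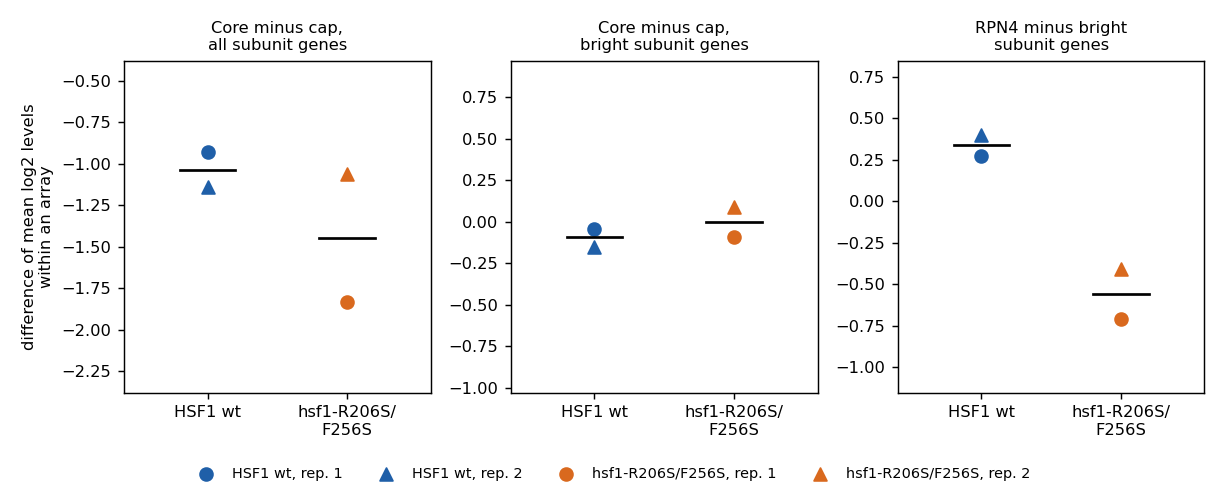
Contrasts of mean log2 levels within an array, by strain, with circles for replicate 1, triangles for replicate 2 and bars for strain means; each vertical axis spans the same width. Core minus cap overlaps between strains, over all subunit genes and over the bright ones, while RPN4 minus the bright subunit genes is 0.27 and 0.40 in the wild type and -0.71 and -0.41 in the mutant.

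Of 16 listed genes for assembly chaperones and associated proteins of the proteasome, 15 were measured. 6 had a lower mean and 8 a higher one, HUL5 read 0 throughout, the median was 0.11, and none passed an adjusted p of 0.05 in limma, 0 also at an unadjusted p under 0.05, against 11.7% of all features. Of its 7 bright genes, 3 lay without overlap below the wild type and 1 above. Of all 2220 bright genes, 22.9% lay below and 618 above. The 3 were PBA1 and ADD66, for chaperones of core assembly, at -0.58 (SE 0.37) and -0.61 (SE 0.40), and RPN14, for a chaperone of cap assembly, at -0.94 (SE 0.43). As deposited PBA1 overlapped, at 23.7 and 24.0 in the wild type and 24.8 and 22.6 in the mutant, while ADD66 and RPN14 did not. RPN14 was above background on only 1 array of each strain. The 1 above was UMP1 (YBR173C), for the chaperone that matures the core, which read 91.7 and 105 in the wild type and 146 and 179 in the mutant, a difference of 0.71 (SE 0.39, adjusted p = 0.604 in limma). These 4 are named after their values were seen. NAS6, a chaperone of cap assembly, alone met the fold rule downward, where 12.8% of all features did, with 10.5 and 21.6 against 4.30 and 7.90. It was above background on 1 wild-type array only, which gives at least 1.84-fold lower, and its fitted -1.22 (SE 0.58) became -0.70 when wild-type replicate 2 was left out, -0.90 when mutant replicate 1 was, -0.99 with the larger offset and -0.54 as deposited. RPN13, a ubiquitin receptor, alone met the rule upward, where 13.5% of all features did. Its difference was 1.80 (SE 0.69) with no value above background. It was 0.87 with the larger offset and 0.97 when mutant replicate 2 was left out.

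The list of known regulators of RPN4 held 6 genes, all measured, with none past an adjusted p of 0.05 in limma. At an unadjusted p under 0.05 there were 2, HSF1 and UBR2, against 11.7% of all features. UBR2 alone met the fold rule downward, against 12.8% of all features, and HSF1 alone upward, against 13.5%. HSF1 (YGL073W) itself read 37.1 and 0 in the wild type and 625 and 540 in the mutant, the highest log2 difference of all 6051 features. The value of 0 leaves its fitted 6.52 (SE 1.98) without a measured size, which ran from 3.67 when wild-type replicate 2 was left out to 8.93 when wild-type replicate 1 was. A spot for HSF1 cannot tell the alleles apart. PDR1 (YGL013C), a drug resistance activator that also acts on RPN4, was at 282 and 234 in the wild type and 154 and 169 in the mutant. It lay lower on both mutant arrays by -0.67 (SE 0.38, adjusted p = 0.622 in limma), and by -1.02 as deposited and -1.75 with median scaling. It is named after its values were seen. UBR2, for the ligase that marks Rpn4 for degradation, was at 7.40 and 12.8 in the wild type and 0 on both mutant arrays, none of them above background. YAP1, PDR3 and MUB1 overlapped between strains and were each above background on 1 mutant array only. The background limits were higher in the wild type, where each of these genes also had its highest value, at 6.69, 16.0 and 9.95. The part of these genes in the difference of RPN4 was not tested.

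Among 10 genes of ubiquitin activation and substrate delivery, 5 were lower, 5 higher, and the median was -0.32. 3 met the fold rule downward, against 12.8% of all features. None passed an adjusted p of 0.05 in limma, 0 also at an unadjusted p under 0.05, against 11.7%. UBI4 (YLL039C), the polyubiquitin gene, read 104 and 100 in the wild type and 87.1 and 21.3 in the mutant, and its difference of -1.21 (SE 0.83) became -0.22 when mutant replicate 2 was left out and -2.35 when mutant replicate 1 was. NPL4, a cofactor of the segregase Cdc48, was at 28.7 and 36.8 against 22.8 and 10.1, and its -1.03 (SE 0.56) ranged from -0.49, when mutant replicate 2 was left out, to -1.66, when mutant replicate 1 was. It was -0.85 when wild-type replicate 2 was dropped, -0.93 with the larger offset and -0.51 as deposited. For both, mutant replicate 2 was the lower one, as for the subunit genes. UFD4, a ubiquitin ligase above background on 1 wild-type array only, was at least 1.47-fold lower, with a fitted -1.14 (SE 0.73). This was -0.34 when mutant replicate 1 was left out, -1.99 when mutant replicate 2 was and -0.94 when wild-type replicate 1 was. It was -0.98 under median scaling, -0.84 with the larger offset and -0.36 as deposited.

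**Figure D4:**
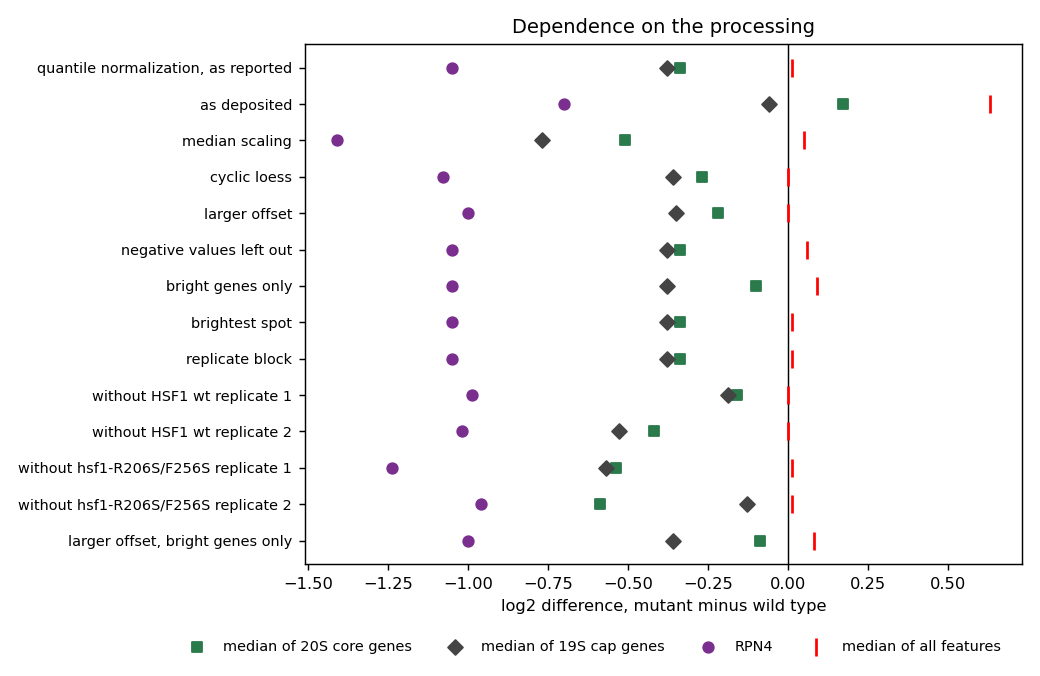
Log2 difference of RPN4 (purple) and medians of the 20S core (green) and 19S cap genes (grey) under each way of processing, with the median of all features in red. RPN4 lies between -0.70 and -1.41 throughout, and the core median alone turns positive, at 0.17, as deposited, where the median of all features is 0.63.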

How the data were processed

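The authors deposited 1 intensity per spot and array on a linear scale. Per the labels, total RNA was copied with oligo(dT) and 33P-dCTP. Values below 0 occur on every array and the array means lie between 32.4 and 32.6, so background appears subtracted and arrays scaled to a common mean. No source used here names the software or the array design (not given). Platform annotation gave 1 gene symbol for 5523 of 6084 spots, none for 561 and several for none. All 5523 were matched by gene identifier to RefSeq names and 0 changed.

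Quantile normalization of the 4 arrays used limma 3.58.1 (R 4.3.3). Negative results were set to 0, 1.06 was added, which is the 5th percentile of positive values, and log2 values of spots of a gene were averaged. Strains were compared with limma (lmFit, eBayes, two-sided, 2 residual and 1.54 prior degrees of freedom, no replicate block). P-values were adjusted by Benjamini-Hochberg over all 6051 features, with a threshold of 0.05. Folds are from log2 means. "At least" folds set a strain with no array above background to its background limit where that is higher. An exact permutation of 2 against 2 arrays cannot go below p = 0.333. Noise SDs (median absolute negative value over the normal quartile) were 2.80 to 5.18, highest on wild-type replicate 2. The number of arrays limits the precision. The procedure was tested on simulated data with independent noise and known shifts of bright genes only. That test does not cover array scaling or changes of genes near background.

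Genes with all values given were RPN4, those past the fold rule and the brightest of each of alpha, beta, base and lid. Further genes were added after their values were seen. Members and lists were chosen with earlier results of these data known. The labels do not pair replicate numbers, and deviations of equal numbers correlated at 0.0438 over bright genes.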

Additional observations from a re-analysis of the deposited data

How the results depend on the processing

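RPN4 was lower under all 13 alternatives, from -1.41 with median scaling to -0.70 as deposited, with adjusted p from 0.173 to 0.640. All reuse the same arrays, and some could not change its difference of -1.05. These were the replicate block, the brightest spot of a gene, bright genes alone and leaving out genes with negative values. No alternative put any of the 32 genes past an adjusted p of 0.05. As deposited, the core median was 0.17, the cap median -0.06, and 1 gene met the fold rule downward and 2 upward, against 5.59% and 28.1% of all features, whose median shifted to 0.63; PRE10 reversed to 0.33. Median scaling gave -0.51 for the core, -0.77 for the cap, 7 genes downward and 0 upward, against 12.8% and 14.8%. With bright genes alone the core median was -0.10, core minus cap 0.09, and 1 gene was past the rule downward, against 9.91%. The larger offset left 2 downward, against 9.02%. Both together, an alternative chosen after seeing the data, gave -0.09, 0.09 and 0 downward, against 8.47%. Leaving out 1 array at a time gave -0.59 to -0.16 for the core, -0.57 to -0.13 for the cap, -0.81 to -0.07 for core minus cap, -1.06 to -0.80 for RPN4 minus the subunit genes, 4 to 8 genes downward, against 16.5% to 23.0% of all features, and 1 to 2 upward, against 17.3% to 21.2%. The replicate block, which the labels do not motivate, left every difference as it was (RPN4 -1.05, adjusted p = 0.640) and 0 genes past the threshold. The causes of these shifts were not tested. Values for single genes, some genes of the other lists included, gave 582 comparisons that moved by less than the replicate SD. A further 108 moved by more and 1 reversed. The 582 include settings that cannot move a value, such as the replicate block and bright genes alone, so they do not measure stability. Signal near background limits 10 of the 32 genes.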
